A study of Homo sapiens with 12 samples.

Results

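ZC3H18 (Z18) is a nuclear protein that links RNA to the machinery of nuclear RNA decay, and its zinc finger of the CCCH type is a fold by which many proteins touch RNA. Z18truncZnFmut is a truncated Z18 that lacks the C-terminal part for which the decay machinery is known and in which aromatic residues of the zinc finger, phenylalanines and a tryptophan, were changed to alanine. The comparison set the 3 Z18truncZnFmut libraries against the 3 libraries of Clover, the fluorescent control protein, 6 of the 12 libraries of the series. Members were taken by the group named in the sample titles, and the fits were run with all 6 libraries and again without Z18truncZnFmut replicate 3. A375 cells, a human melanoma line, were transiently transfected with a V5-tagged construct, so that the cells of both groups also held their own Z18, and labelling with 4-thiouridine began 24 h later. RNA crosslinked to the tagged protein was pulled down with an antibody to V5 and sequenced (PAR-CLIP, without selection of the protein by size). The pull-downs were made in triplicate and nothing states that they came from separate transfections, so the p-values measure the spread between these libraries only. No input RNA was analysed here, so a repeat that was more abundant in the cells and a repeat that was bound more cannot be told apart. The files list repeat elements only, so neither the identity of the cell line nor the level of the construct could be checked.

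Reads were counted on annotated repeat elements, copies of mobile DNA that fill much of the human genome. LINE-1 (L1) is the autonomous retrotransposon of primates, and its copies carry the names of their age, with L1HS and the L1PA subfamilies the young ones and the L1M subfamilies the old ones. Alu and SVA elements are short and are copied by the L1 machinery, LTR elements are the remains of endogenous retroviruses (ERVs), and MIR, L2 and DNA transposons are ancient. Most copies lie in introns or between genes, so that much of their RNA is part of a longer transcript.

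Clover libraries held 660648 to 698777 counts in the orientation of the element and 16683132 to 17673644 aligned fragments. Z18truncZnFmut replicates 1 and 2 held 1286490 and 1096500 element counts and replicate 3 held 2183589, with 21285347 to 24217444 aligned fragments. Replicate 3 stood apart. It listed 1411138 elements of the 1865853 found in any of the 6 libraries, against 464444 and 495080 in replicates 1 and 2 and 282324 to 338497 in Clover. Its share of counts on the strand of the element was 55.4%, against 63.6% and 61.0% in replicates 1 and 2 and 60.3% to 60.7% in Clover. Counts per 1000000 (CPM) below are per 1000000 aligned fragments of the library, whereas log2 fold changes are of Z18truncZnFmut over Clover after TMM scaling, which assumes that most features do not change. Scaling by aligned fragments moved the median over subfamilies from 0.03 to 1.04 with all 6 libraries and from -0.01 to 0.33 without replicate 3, so a fall under TMM is a fall relative to other repeats.

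The sequences of 3 short elements are printed as examples of loci that rose or fell. They were read from hg38 on the strand of the element. Runs of 4 or more A are in capitals because L1 loci were rich in A. This held alike for L1 loci that rose and those not called (medians of 38.9% and 38.5% A). The L1 examples are not typical, since the L1 loci that rose had a median length of 3948 bp. Of the 201 L1 loci under 300 bp that were tested, 6 rose and 14 fell. Only 2.41% of all rises were in exons. L1M4c and L1PB1 had the largest rises of the 3 L1 elements under 300 bases that met the rule for named loci. They were chosen after their values were seen, whereas MIRc was among the 4 loci with the largest falls under that rule. L1M4c lies in an exon of MALAT1, a long noncoding RNA of nuclear speckles, at chr11:65499662-65499925 (plus strand). L1PB1 lies in an intron of a gene without a symbol (ENSG00000287474) at chr2:75968863-75969063 (plus strand). MIRc lies in an exon of NIP7, a factor of ribosome assembly, at chr16:69342132-69342229 (plus strand).
L1M4c: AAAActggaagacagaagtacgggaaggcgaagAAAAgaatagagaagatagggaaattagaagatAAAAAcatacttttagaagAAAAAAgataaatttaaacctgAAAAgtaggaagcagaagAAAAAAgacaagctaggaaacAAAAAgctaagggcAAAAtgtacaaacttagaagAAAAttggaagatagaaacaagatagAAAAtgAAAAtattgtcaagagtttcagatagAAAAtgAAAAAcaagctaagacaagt
L1PB1: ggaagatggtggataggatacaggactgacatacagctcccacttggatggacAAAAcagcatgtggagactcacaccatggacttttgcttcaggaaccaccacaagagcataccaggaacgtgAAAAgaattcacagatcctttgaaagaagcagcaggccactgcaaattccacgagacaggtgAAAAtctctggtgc
MIRc: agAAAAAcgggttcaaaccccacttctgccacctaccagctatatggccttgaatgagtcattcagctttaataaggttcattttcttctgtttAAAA
A made up 54.5% of the L1M4c element, 34.3% of L1PB1 and 29.6% of MIRc. A run of 4 A was common in the repeats tested, occurring in 2589 of 2741 elements of 200 to 300 bases (94.5%), so its presence does not set these elements apart.

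The question of the comparison is which repeat RNAs are still recovered with the truncated protein once its zinc finger is mutated. L1 was the family that stood out. It held 8315, 7077 and 7329 CPM in Clover replicates 1 to 3 and 14650, 13232 and 28826 CPM in Z18truncZnFmut replicates 1 to 3. Every Z18truncZnFmut library lay above every Clover library, and replicate 3 lay well above the other mutant libraries. This lack of overlap in CPM was not particular to L1. Alu, ERV1, MIR, ERVL-MaLR, hAT-Charlie, ERVL and TcMar-Tigger showed it too. The log2 fold change of L1 was 0.63 ± 0.092 (SE) with all 6 libraries (edgeR quasi-likelihood, adjusted p = 0.00767) and 0.68 ± 0.070 without replicate 3 (adjusted p = 0.000613). The call was lost when any 1 Clover library was left out, with log2 fold changes of 0.65, 0.61 and 0.65 and adjusted p of 0.0705, 0.0926 and 0.0811, and under scaling by aligned fragments with all 6 libraries (adjusted p = 0.114).

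**Figure D1:**
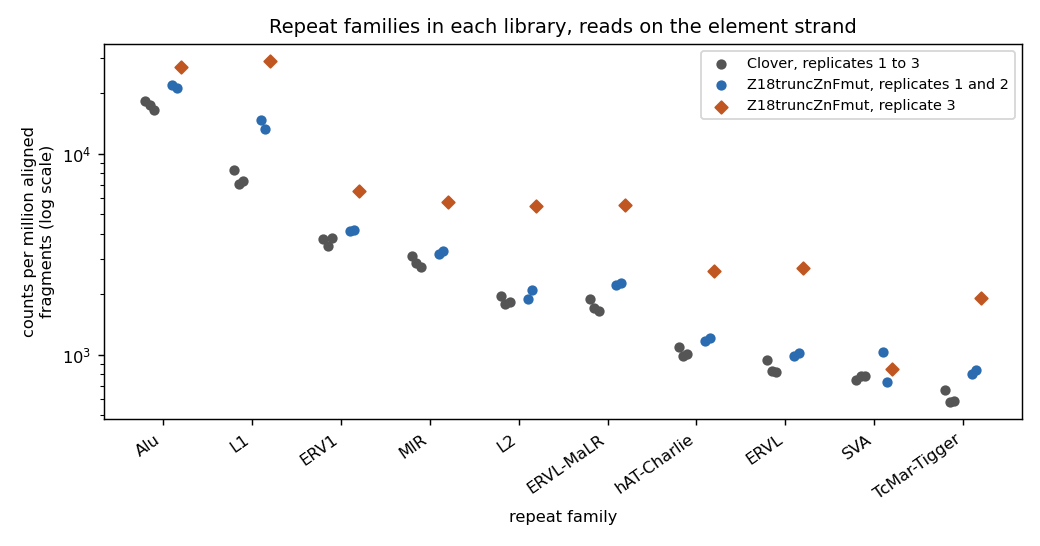
Counts per 1000000 aligned fragments (log scale) for 10 repeat families on the strand of the element, with 1 point per library, Clover in grey, Z18truncZnFmut replicates 1 and 2 in blue and replicate 3 as an orange diamond. Every mutant point lies above every Clover point for L1, Alu, ERV1, MIR, ERVL-MaLR, hAT-Charlie, ERVL and TcMar-Tigger. The gap to both blue points is clearest for L1. For L2 and SVA the points overlap, and replicate 3 lies above the others in nearly every family.

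L1 was the 1 family called among 39 with all 6 libraries, 2.56% of those tested, against 5 of 39 without replicate 3, or 12.8%. The further families that rose without replicate 3 were ERVL-MaLR, the mammalian apparent LTR retrotransposons, with a log2 fold change of 0.16 ± 0.036 (adjusted p = 0.0247), and TcMar-Tigger, DNA transposons related to mariner, with 0.22 ± 0.038 (adjusted p = 0.00808). The families that fell were the ancient DNA transposon hAT-Ac, by 0.43 on the log2 scale (SE 0.090, adjusted p = 0.0225), and the LINE family RTE-BovB, by 0.26 (SE 0.060, adjusted p = 0.0247). hAT-Ac held 84.3, 83.8 and 82.0 CPM in Clover and 76.8, 65.9 and 74.8 CPM in Z18truncZnFmut, so that here replicate 3 lay with the other mutant libraries below Clover. RTE-BovB overlapped Clover in CPM, at 62.8 to 74.5 in Clover and 64.7 to 100.4 in Z18truncZnFmut, and under scaling by aligned fragments without replicate 3 neither fall was called (adjusted p = 0.133 and 0.776).

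Alu was the most abundant family, with 16426 to 18192 CPM in Clover and 21283 to 27065 CPM in Z18truncZnFmut. Its log2 fold change was -0.13 ± 0.21 with all 6 libraries (adjusted p = 0.798) and 0.11 ± 0.053 without replicate 3 (adjusted p = 0.269), and scaling by aligned fragments without replicate 3 turned it to a called rise of 0.31 (adjusted p = 0.00386). ERV1, a family of endogenous retroviruses, had 3483 to 3817 CPM in Clover and 4128, 4171 and 6528 CPM in Z18truncZnFmut. Its log2 fold change was -0.19 ± 0.15 and, without replicate 3, -0.033 ± 0.062, and neither passed the test (adjusted p = 0.493 and 0.795). ERVL, ERVK, MIR, L2 and SVA did not pass it in either fit, with log2 fold changes of 0.11, -0.11, -0.16, 0.0063 and -0.32 with all 6 libraries and 0.019, 0.014, -0.044, -0.094 and -0.0069 without replicate 3. MER4-int, the subfamily of an ERV1 internal part that the study followed at a single locus, held 4.75 to 10.0 CPM in Clover and 9.35, 12.5 and 56.0 CPM in Z18truncZnFmut (log2 fold change 0.64 ± 0.31, adjusted p = 0.304, and 0.28 ± 0.17 without replicate 3, adjusted p = 0.291). HERVK3-int, an ERVK subfamily that it followed in the same way, held 19.1 to 21.7 CPM in Clover and 26.4, 27.1 and 32.1 CPM in Z18truncZnFmut, with a log2 fold change of -0.26 ± 0.29 (adjusted p = 0.641).

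As a share of all element counts, L1 made up 19.1% ± 0.769 (SD, n = 3) in Clover and 28.4% ± 3.23 in Z18truncZnFmut. The groups did not overlap (27.5%, 25.7% and 32.0% in replicates 1 to 3, against 18.3% to 19.9%), with an exact two-sided permutation p of 0.1, the smallest that 3 against 3 can give, and 0.375 after Benjamini-Hochberg adjustment over the 15 single values tested.

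At the level of subfamilies, 12 of 921 rose with all 6 libraries, 1.3% of those tested, and all 12 were L1. None fell (0% by edgeR, 76 at an unadjusted p under 0.05, and 28 by DESeq2). Without replicate 3, 98 of 895 rose (10.9%) and 51 fell (5.7%), and these included all of the 12. The leading members were L1MA subfamilies, the youngest branch of the old mammalian L1M lineage. L1MA2 had 673, 565 and 545 counts in Clover and 3039, 2250 and 7736 in Z18truncZnFmut, with no overlap after scaling to aligned fragments, and rose by 1.39 ± 0.15 on the log2 scale (adjusted p = 0.00727). L1MA1 rose by 1.31 ± 0.15, from 286 to 369 counts in Clover to 1090 to 4090 in Z18truncZnFmut. L1MA3 rose by 1.10 ± 0.16, from 953 to 1182 counts to 3268 to 10213. The 3 values without replicate 3 were 1.41, 1.28 and 1.16, so that for these subfamilies the rise did not rest on that library. The other 9 were L1PB2, L1PB3, L1PA8, L1PB4, L1M1, L1M3c, L1MD1, L1MA4 and L1M2, with log2 fold changes from 0.97 down to 0.76 and adjusted p of 0.0153 to 0.0465. None of the 12 calls was kept when a Clover library was left out, since then no subfamily was called, and without Z18truncZnFmut replicate 1 or 2 the count was 4 or 2. All 12 log2 fold changes stayed positive without replicate 3 (0.70 to 1.41).

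Among the fixed groups of L1 subfamilies, those of middle age moved most. The median log2 fold change with all 6 libraries was 1.10 over the 5 tested of L1MA1 to L1MA4 (4 rose), 0.80 over the 7 of L1MA5 to L1MA10 (0 called), 0.71 over the 18 of L1PB and L1P (3 rose), 0.60 over the 25 of L1M1 to L1M8 (3 rose) and 0.55 over the 12 of L1PA7 to L1PA17 (1 rose), beside 0.03 over all 921 subfamilies. The youngest group, L1HS and L1PA2 to L1PA6, had a median of 0.21 with none of 6 called. The older groups L1ME, L1MB and HAL1 had medians of 0.32, 0.21 and 0.27 with none called, and L1MC and L1MD one of 0.21 with 1 of 17 called.

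Without replicate 3 all 6 members of the youngest group rose, with a median of 0.49, and L1HS, the subfamily that is still mobile in humans, moved from 0.13 ± 0.28 (adjusted p = 0.832) to 0.43 ± 0.092 (adjusted p = 4.06e-05). L1HS held 136 to 148 CPM in Clover and 258, 222 and 308 CPM in Z18truncZnFmut, so that in CPM no mutant library overlapped Clover in either case. All 12 members of L1PA7 to L1PA17 and all 5 of L1MA1 to L1MA4 rose, as did 15 of 18 of L1PB and L1P, 18 of 25 of L1M1 to L1M8 and 6 of 7 of L1MA5 to L1MA10, but 4 of 7 of L1MB, 7 of 17 of L1MC and L1MD and 8 of 27 of L1ME. In all, 83 of the 129 L1 subfamilies tested rose and 1 fell, and 15 of the 766 others rose and 50 fell.

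**Figure D2:**
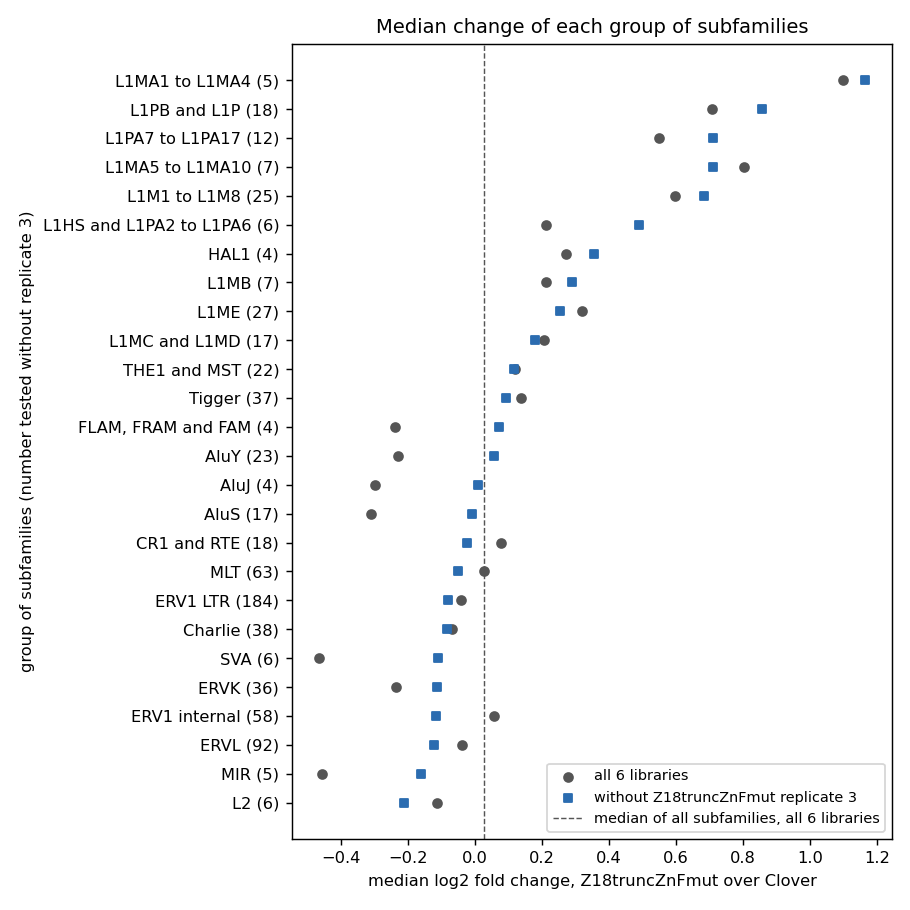
Median log2 fold change of Z18truncZnFmut over Clover for each fixed group of subfamilies, with all 6 libraries (grey circles) and without Z18truncZnFmut replicate 3 (blue squares), and the number of subfamilies tested in brackets. Every L1 group lies to the right of the dashed line, the median of all subfamilies at 0.03, whereas the Alu, SVA and MIR groups lie to its left with all 6 libraries and move towards 0 without replicate 3.

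The largest rises without replicate 3 were those of L1MA2, L1MA1, L1PA8A, L1PBa, L1MA3 and L1M4c. L1PA8A and L1PBa rose by 1.19 ± 0.10 and 1.16 ± 0.10 and missed the threshold with all 6 libraries (log2 fold change of L1PBa 0.97, adjusted p = 0.0540 and 0.0544). L1M4c rose by 1.11 ± 0.10 without replicate 3 and had 0.86 ± 0.24 with it (adjusted p = 0.115). A single element carried much of L1M4c. The copy in the exon of MALAT1 printed above had 87, 36 and 49 counts in Clover and 873, 666 and 698 in Z18truncZnFmut, with no overlap, and gave 40.0%, 37.9% and 22.3% of the subfamily's counts in the mutant libraries against 6.78% to 14.9% in Clover. It rose by 3.06 ± 0.22 with all 6 libraries (adjusted p = 9.91e-10) and by 3.11 without replicate 3, and was the only repeat of MALAT1 with enough counts to be tested. An antisense transcript, TALAM1, overlaps it on the other strand, and the libraries were prepared by a stranded protocol.

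The 6 largest falls without replicate 3 were all outside L1. They were MER51A (by 0.77 on the log2 scale, SE 0.12), MER57A-int (by 0.68, SE 0.10), LTR28C (by 0.63, SE 0.14) and LTR21A (by 0.62, SE 0.14), all of the ERV1 family, MER68-int of ERVL (by 0.68, SE 0.14) and FordPrefect, a DNA transposon (by 0.61, SE 0.12). None passed with all 6 libraries (adjusted p = 0.0682 to 0.172), although the log2 fold changes after TMM scaling were larger there, at -0.88 to -1.04. Under scaling by aligned fragments with all 6 libraries they were only -0.07 to -0.28 (adjusted p = 0.487 to 0.856). Replicate 3 did not deepen most of these falls in CPM. It lay above every Clover library for MER51A, LTR28C and FordPrefect, among them for MER57A-int and MER68-int, and below them for LTR21A. In CPM, replicates 1 and 2 lay below every Clover library for MER51A, MER57A-int, MER68-int and LTR21A, as at 17.9 and 19.5 against 24.0 to 26.0 for MER51A, and overlapped Clover for LTR28C and FordPrefect. Under scaling by aligned fragments without replicate 3, MER51A and MER57A-int still passed (adjusted p = 0.0144 and 0.0214) and the other 4 did not (0.0950 to 0.191). After TMM scaling without replicate 3, 51 of all 895 subfamilies fell (5.7%) and 98 rose (10.9%). By group in the same fit, 13 of 184 LTRs of ERV1 fell and 5 rose, 8 of 58 ERV1 internal parts fell and 3 rose, 2 of 6 L2 and 2 of 5 MIR subfamilies fell, and none of the 17 AluS, 4 AluJ or 6 SVA subfamilies was called. MLT (63 tested, 1 rose and 2 fell), ERVL (92, 5 fell), ERVK (36, 2 fell), Charlie (38, 1 rose and 3 fell), Tigger (37, 3 rose and 5 fell), THE1 and MST (22, 2 rose), CR1 and RTE (18, 2 fell), AluY (23, 1 fell) and the FLAM, FRAM and FAM monomers (4, none called) had medians of -0.12 to 0.12 beside -0.01 over all subfamilies.

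Divergence from the consensus, in milliDiv or mismatches per 1000 bases, is a measure of an element's age. L1 counts were summed in bins of 50. With all 6 libraries 4 of the 75 bins over all families were called (5.33%), and all 4 were L1, at milliDiv 100 to 149 (log2 fold change 0.91 ± 0.093, adjusted p = 0.0033), 150 to 199 (0.81 ± 0.13), 200 to 249 (0.64 ± 0.12) and 300 to 349 (0.32 ± 0.066, adjusted p = 0.0446). The bin at 100 held 903 to 1084 CPM in Clover and 2274, 1981 and 4603 CPM in Z18truncZnFmut. The youngest bins, 0 to 49 and 50 to 99, had 0.58 ± 0.14 and 0.60 ± 0.14 and missed the threshold (adjusted p = 0.0541 for both). Scaling by aligned fragments with all 6 libraries gave other calls. The bins at 0, 50 and 100 passed (adjusted p = 0.0244 for each) and those at 150, 200 and 300 did not (0.0601, 0.0769 and 0.127). After TMM scaling without replicate 3 the bins at 0 and 50 passed, at 0.73 ± 0.067 and 0.72 ± 0.085, with the peak of 0.90 ± 0.072 at 100 to 149 and a decline over 0.69, 0.53, 0.37 and 0.30 to 0.078 ± 0.071 at 350 and over (adjusted p = 0.527). The bins at 150 and over were lower without replicate 3 than with it, except the last, and the bins under 100 were higher. Neighbouring bins at 0 and 50 did not differ beyond their SE.

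**Figure D3:**
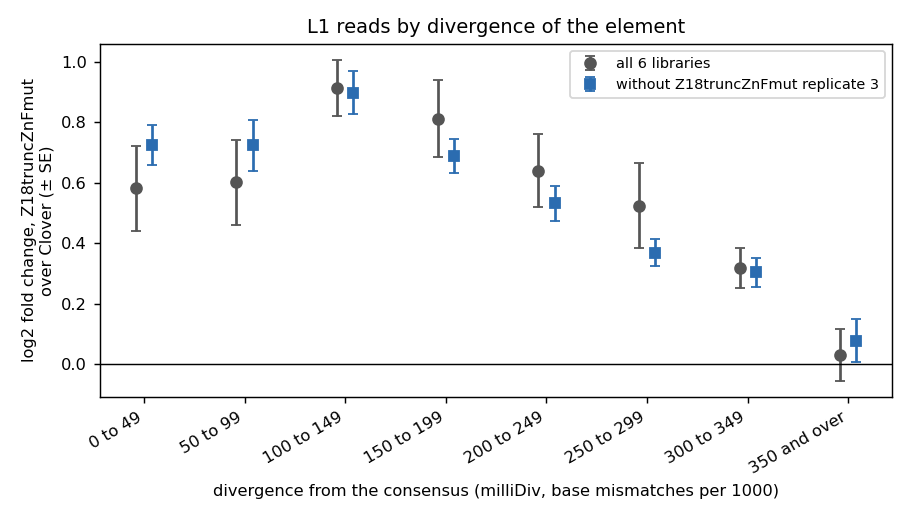
Log2 fold change (± SE) of L1 counts, Z18truncZnFmut over Clover, in bins of divergence from the consensus, with all 6 libraries (grey circles) and without Z18truncZnFmut replicate 3 (blue squares). Both series peak at milliDiv 100 to 149, at 0.91 and 0.90, and approach 0 at 350 and over.

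Outside L1, no bin was called with all 6 libraries and 8 of the 15 bins called without replicate 3 (20% of 75) were of other families. The ERVL-MaLR bins at 50 to 99 and 100 to 149 rose (0.36 and 0.29), as did DNA transposons at 100 to 149 (0.26), and DNA transposons at 300 to 349 and at 350 and over fell (by 0.15 and by 0.28), with ERV1 at 250 to 299 (by 0.27), L2 at 250 to 299 (by 0.17) and MIR at 350 and over (by 0.20). The mean milliDiv of DNA transposon counts was 221 ± 0.494 (SD, n = 3) in Clover and 214 ± 0.626 in Z18truncZnFmut, without overlap, and here replicate 3 did not stand apart (214, 213 and 214 in replicates 1 to 3; exact permutation p = 0.1, adjusted p = 0.375). The mean milliDiv of L1 counts did depend on it. It was 142 to 146 in Clover and 133, 139 and 155 in replicates 1 to 3, so that replicates 1 and 2 lay below and replicate 3 above every Clover library. The difference of the means was -2.20 with all libraries (exact permutation p = 0.8) and -8.37 without replicate 3. Alu counts had a mean milliDiv of 117 in every Clover library and of 117, 118 and 119 in Z18truncZnFmut, and L2 counts of 302 in Clover and 302, 304 and 310 in Z18truncZnFmut, both without overlap (exact permutation p = 0.1, adjusted p = 0.375 for each).

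Of 10152 single elements (loci) tested with all 6 libraries, 1245 rose (12.3%) and 490 fell (4.83%), and of 9894 tested without replicate 3, 1025 rose (10.4%) and 276 fell (2.79%). The fits shared 905 rises, 72.7% of the first list and 88.3% of the second, and 250 falls, 51.0% and 90.6%. No locus called with all 6 libraries was called the other way without replicate 3. With scaling by aligned fragments 2013 rose and 133 fell. L1 held 1087 of the 1245 rises (801 of them rises in both fits) and 36 of the 490 falls, out of 2780 L1 loci tested, so that 39.1% of the L1 loci rose beside the 12.3% over all loci. A locus entered the test once enough libraries reached the minimum count, whichever group they were of. Loci scarce in Clover could thus enter through Z18truncZnFmut alone, and how many of the rises did so was not counted. The shares here and below describe the loci tested and are not independent support for a rise. Alu held 59 rises and 230 falls of 4112 loci, MIR 9 and 70 of 565, L2 2 and 30 of 302, hAT-Charlie 2 and 20 of 228, TcMar-Tigger 14 and 8 of 165, ERV1 40 and 30 of 785, ERVL 6 and 16 of 220 and ERVL-MaLR 20 and 21 of 478.

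Rises and falls lay in different places. Of the rises 66.8% were in introns read on the gene's strand, 23.4% outside genes, 7.39% antisense to a gene and 2.41% in exons, whereas of the falls 71.6% were in exons and 14.1% in introns. Over all loci tested 38.5% were in introns and 32.3% in exons. The median mean count over the 6 libraries was 67.7 in the falls and 27.1 in the rises, beside 19.4 over all loci tested. Position and count were not separated. Within L1, 741 of 1426 intron loci rose (52.0%), 256 of 693 outside genes (36.9%), 77 of 363 antisense to a gene (21.2%) and 13 of 298 exon loci (4.36%), the last with 20 falls. L1 loci at milliDiv 50 to 99 and 100 to 149 rose most often, 54.4% and 57.7%, against 35.6% at 0 to 49, 36.6% at 150 to 199 and 9.29% at 250 to 299. Long L1 loci rose more often than short ones, from 2.99% of 201 loci under 300 bp over 11.2% and 43.5% to 53.5% of 1265 loci of 3000 bp and over. Under 300 bp more loci fell than rose (14 against 6, median log2 fold change -0.27), whereas at 3000 bp and over 677 rose and 1 fell. The median mean count of these length classes was 27.1 over the 6 libraries in the longest class and 20 in each of the others. Length and divergence go together, since the median length fell from 6019 bp at milliDiv 0 to 49 to 354.5 bp at 300 to 349, and their parts were not separated.

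**Figure D4:**
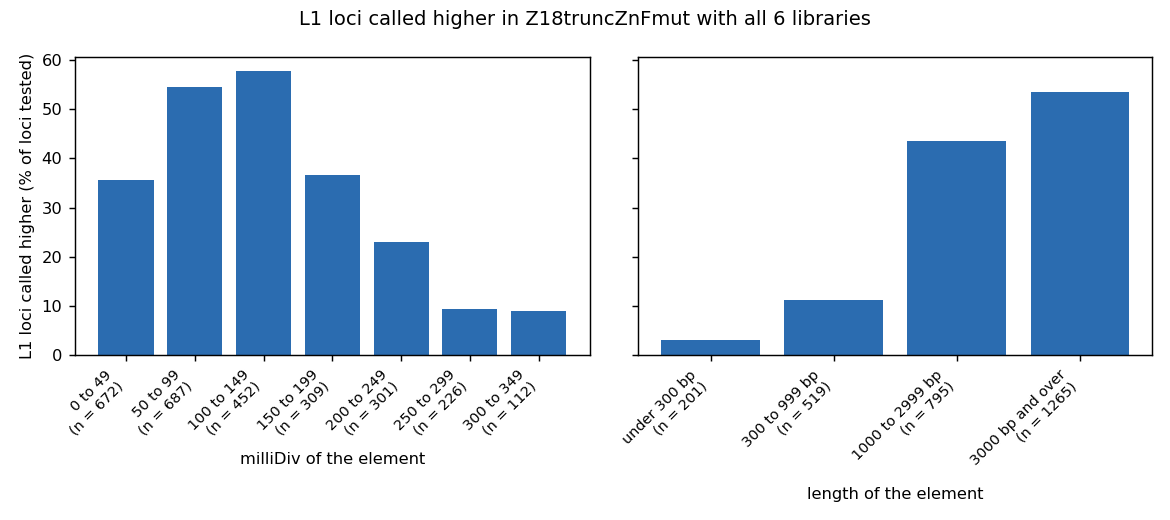
Share of tested L1 loci that rose in Z18truncZnFmut with all 6 libraries, by divergence (left) and by length (right), with the number of loci tested below each bar. The share peaks at 57.7% at milliDiv 100 to 149 and climbs from 2.99% under 300 bp to 53.5% at 3000 bp and over.

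In base composition, the loci that rose had a median of 38.6% A and 20.4% T on the strand of the element, against 29.3% and 20.1% over all loci tested and 27.6% and 21.4% in those that fell. Most of this difference lay between L1 and the other families, since among L1 loci alone the medians were 38.9% A and 20.4% T in those that rose and 38.5% and 20.6% in those that were not called. 4-thiouridine takes the place of uridine, the RNA form of T. The share of T in an element does not measure the labelling of the RNA recovered, and whether labelling played a part was not tested.

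By the rule for named loci 840 rises qualified, and the 6 largest were all L1. A copy of L1PA2 at chr12:46420945-46427078 (minus strand), in an intron of an unnamed gene (ENSG00000257496) and opposite SLC38A4-AS1, had no count in any Clover library and 34.1, 23.9 and 33.4 counts in Z18truncZnFmut. This was at least 7.45-fold higher, set against a floor of 3 counts in each Clover library (adjusted p = 8.82e-06). The other 5 had 1 to 2 counts in the 3 Clover libraries together, and their ratios of pooled counts per aligned fragment are given with exact 95% intervals that cover counting error only. A copy of L1PA3 outside genes (chr1:189754802-189760951, plus strand) had 37.0, 18.7 and 32.3 counts in Z18truncZnFmut, a ratio of 65.0 (11.4 to 2596). A copy of L1PA15 in an intron of ATF6, a transcription factor of the unfolded protein response (chr1:161797141-161798331, plus strand), had 26, 20 and 26 counts, a ratio of 53.2 (9.25 to 2129). A copy of L1P4a in an intron of an unnamed gene (chr11:39133129-39137173, minus strand) had 19, 25 and 25 counts, a ratio of 51.0 (8.85 to 2042). A copy of L1P2 in an intron of SRPK2, a kinase of splicing factors (chr7:105359806-105360774, minus strand), had 31.3, 26 and 37 counts, a ratio of 34.7 (9.35 to 291). A copy of L1PB4 in an intron of IGF2R, a receptor that sorts lysosomal enzymes (chr6:160016301-160019298, plus strand), had 32, 31 and 25 counts, a ratio of 32.5 (8.73 to 273). In these 6 loci replicate 3 lay among or near the other mutant libraries in counts, and 58.3% to 77.1% of the counts mapped uniquely. All 6 entered the test only through their Z18truncZnFmut counts and were picked for the size of their rise. The p-value, fold and ratios given for them describe that choice and are not independent support.

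Falls that qualified numbered 189, and MER52A, MIRc in NIP7 and L2a were among the 4 largest. MER52A, an LTR outside genes (chr16:64345205-64346552, plus strand), had 31, 17 and 27 counts in Clover and 11, 13 and 6 in Z18truncZnFmut, which did not overlap, and fell by 1.93 (SE 0.43, adjusted p = 0.00205). MIRc had 20, 24 and 22 counts in Clover and 10, 9 and 15 in Z18truncZnFmut and fell by 1.58 (SE 0.40, adjusted p = 0.00697). L2a, outside genes (chr19:3768731-3769084, plus strand), had 37, 40 and 30 counts in Clover and 24, 17 and 15 in Z18truncZnFmut and fell by 1.58 (SE 0.33, adjusted p = 0.00108). All 3 also fell without replicate 3, by 1.66, 1.82 and 1.43.

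The place of L1 counts relative to genes separated replicate 3 from the rest. Introns on the gene's strand held 3656, 3099 and 3284 CPM of L1 in Clover and 7531, 6843 and 10351 CPM in Z18truncZnFmut. Outside genes L1 held 2041 to 2418 CPM in Clover and 4105, 3637 and 11027 CPM in Z18truncZnFmut, and antisense to genes 1024 to 1248 CPM and 1889, 1750 and 6373 CPM. In exons it held 884 to 992 CPM and 1124, 1002 and 1075 CPM. The excess of replicate 3 over replicates 1 and 2 thus lay outside genes and antisense to them more than in introns, and was absent in exons. As a share of L1 counts, introns made up 43.8% to 44.8% in Clover and 51.4%, 51.7% and 35.9% in Z18truncZnFmut, so that the difference was 2.16 points with all libraries (exact permutation p = 1) and 7.37 points without replicate 3.

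**Figure D5:**
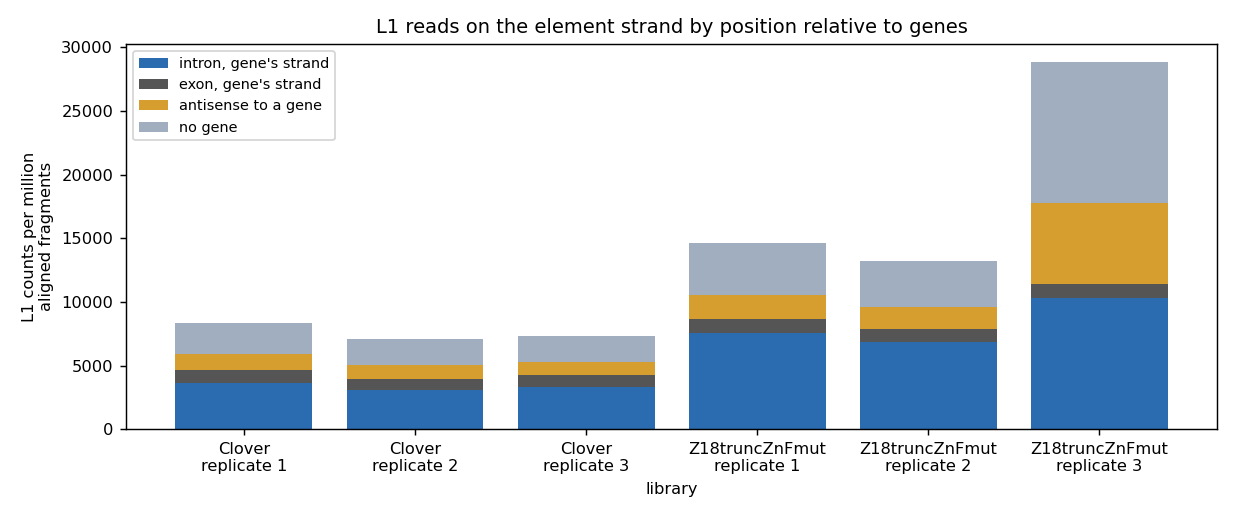
L1 counts per 1000000 aligned fragments on the strand of the element in each of the 6 libraries, stacked by the position of the element relative to annotated genes. Intron counts are 7531 and 6843 in Z18truncZnFmut replicates 1 and 2 against 3099 to 3656 in Clover, and replicate 3 has a much larger part outside genes (11027) and antisense to genes (6373).

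Strand gave the same picture. The share of L1 counts on the strand of the element was 66.9%, 66.2% and 69.0% in Clover and 78.5%, 73.1% and 59.1% in Z18truncZnFmut. Replicates 1 and 2 lay above and replicate 3 below every Clover library, with a difference of 2.87 points with all libraries (exact permutation p = 0.7) and 8.42 without replicate 3. On the opposite strand L1 held 3288 to 4108 CPM in Clover and 4014, 4867 and 19916 CPM in Z18truncZnFmut, and its log2 fold change did not pass the test with all 6 libraries (0.40 ± 0.25, adjusted p = 0.478) or without replicate 3 (0.053, adjusted p = 0.652). No family of 40 was called on that strand with all 6 libraries (0% by edgeR, 6 at an unadjusted p under 0.05, 0 by DESeq2), and 3 of 39 without replicate 3 (7.69%), RTE-BovB, ERV1 and L2. No subfamily of 928 was called (0% by edgeR, 93 at an unadjusted p under 0.05, 1 by DESeq2), and 26 of 910 were without replicate 3 (2.86%), 4 higher and 22 lower. FordPrefect was among the 4, with a log2 fold change of 1.21 on the opposite strand beside its fall on its own. Of 5230 loci read on the opposite strand 50 were called with all 6 libraries (0.956%), 40 higher and 10 lower, and of 5289 without replicate 3, 25 were called (0.473%). L1 held 7 of the 40 and 666 of the 5230 loci tested.

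Repeat reads in introns, on the strand of the gene and over elements of either orientation, were summed for each host gene. Of 9223 genes 64 rose (0.694%) and 38 fell (0.412%) with all 6 libraries, and of 8341 genes 269 rose (3.23%) and 243 fell (2.91%) without replicate 3, which included all of the 64 and the 38. No gene was called without Z18truncZnFmut replicate 2 and without any 1 Clover library, and scaling by aligned fragments gave 2957 higher and 8 lower. Genes that rose were long, with a median length of 153814 bp beside 62392 bp over all genes tested (126182 bp for the rises without replicate 3). Those that fell had a median of 77274.5 bp, and of 53863 bp without replicate 3. Counts were summed over all intronic repeats of a gene, so length and count were not separated. The largest rise of a coding gene was that of UBL3, a ubiquitin-like protein (chr13:29764371-29850617, minus strand), with 9, 14 and 11 counts in Clover and 118, 107 and 127 in Z18truncZnFmut and a log2 fold change of 2.19 ± 0.30 (adjusted p = 0.0315). SPTLC1, a subunit of the enzyme that opens sphingolipid synthesis, had 43 to 56 counts in Clover and 282 or more in each Z18truncZnFmut library and rose by 1.57 ± 0.18 (adjusted p = 0.0215). In both genes every mutant library lay above every Clover library. PRKG2-AS1, an antisense transcript, rose by 2.37 ± 0.41, VTA1 of the endosomal sorting pathway by 1.91 ± 0.30, MTERF4 of the mitochondrial ribosome pathway by 1.74 ± 0.35, CYB5R4, a reductase, by 1.63 ± 0.31, LRAT of retinol metabolism by 1.58 ± 0.30 and PPP1R9A, an actin-binding scaffold, by 1.57 ± 0.23. ZNG1C and ZNG1B also rose (2.03 and 1.53), but they are near-identical copies of a gene family between which reads may be split, and are uncertain.

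The 6 largest falls were those of PRMT5-DT, LRP1, WASH2P, NCAPD2, KMT2D and HUWE1, by 1.62 to 1.19 on the log2 scale. LRP1, an endocytic receptor, had 1573, 1774 and 1576 counts in Clover and 1678, 1383 and 1197 in Z18truncZnFmut, a fall by 1.35 (SE 0.24, adjusted p = 0.0399) relative to the other genes and by 0.64 under scaling by aligned fragments (adjusted p = 0.0140). HUWE1, a ubiquitin ligase, had 2831, 2701 and 2752 counts in Clover and 2948, 2682 and 2358 in Z18truncZnFmut, a fall by 1.19 (SE 0.22) and by 0.49 under that scaling (adjusted p = 0.0198). KMT2D (-0.49, adjusted p = 0.0549) and WASH2P (-0.58, adjusted p = 0.0716) lost their calls under that scaling. In LRP1 and HUWE1 the raw counts were alike while the mutant libraries were deeper. When elements on the gene's strand alone were counted, NCAPD2, a condensin subunit, turned from a fall by 1.23 to 0.40 (adjusted p = 0.684), and HUWE1 (-0.49) and WASH2P (-1.05) no longer passed. WASH2P is a copy of a multigene family and is uncertain.

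Z18trunc, the same truncated protein with an intact zinc finger, was compared directly with Z18truncZnFmut to ask whether the mutated residues set the constructs apart. No subfamily of 957 was called (edgeR; 49 at an unadjusted p under 0.05, 0 by DESeq2) and none of 959 without Z18truncZnFmut replicate 3 (95 at an unadjusted p under 0.05, and 12 by DESeq2). With scaling by aligned fragments and without replicate 3, 57 were called, 55 lower and 2 higher than in Z18trunc. These included 11 of the 12 L1 subfamilies called against Clover (log2 fold changes of the 12 from -0.39 to -0.60). That setting and DESeq2 without replicate 3 were added after seeing the data. L1 held 17756 ± 576 CPM (SD, n = 3) in Z18trunc, above the 13941 ± 1002 (n = 2) of Z18truncZnFmut without replicate 3. The log2 fold change of L1, Z18truncZnFmut over Z18trunc, was -0.31 ± 0.14 (adjusted p = 0.800) and -0.21 ± 0.11 without replicate 3 (adjusted p = 0.709), and -0.35 under scaling by aligned fragments without replicate 3, which passed (adjusted p = 0.0352). With that scaling and all libraries the sign turned, at 0.090 (adjusted p = 0.845). TcMar-Tigger had -0.27 ± 0.062 (adjusted p = 0.162) and -0.22 ± 0.041 without replicate 3 (adjusted p = 0.0594). The 12 L1 subfamilies called against Clover had log2 fold changes of -0.19 to -0.48, and 17 of the 130 L1 subfamilies tested had a positive one (medians -0.24 with all libraries and -0.25 without replicate 3). Against the same Clover libraries Z18trunc had an L1 log2 fold change of 0.92 ± 0.089 beside the 0.63 of Z18truncZnFmut, and a median of 1.61 over L1MA1 to L1MA4 beside 1.10, with 134 of 925 subfamilies higher and 110 lower. The comparisons with Clover share the control libraries, and the direct test is the one that bears on the difference.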

How the data were processed

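Repeat reads were measured by anti-V5 PAR-CLIP in A375 cells. The authors trimmed the reads (cutadapt 4.6 per the labels' processing notes) and ran SQuIRE, whose version is not given in the sources used here, on hg38, with 1 file per library and no pooling. The deposited totals are expected counts, in which SQuIRE adds shares of multimapping reads to the unique reads, and were rounded to whole numbers here. The deposited unique reads and aligned fragments are counts, and the deposited score is a percent that was not used in a test. The FPKM column of the deposited files was left out.

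Elements of 6 classes (LINE, SINE, LTR, DNA, RC and Retroposon) were kept. Loci, subfamilies, families, bins of milliDiv and host genes were fitted with edgeR 4.0.16 (TMM, quasi-likelihood, filterByExpr with a minimum count of 10 and total of 15), with calls made at a Benjamini-Hochberg adjusted p below 0.05. Standard errors are the fold change over the root of the F statistic. Single values per library were compared by exact two-sided permutation. Gene context came from GENCODE release 44: elements with at least 50% of their length in exons were called exonic. Sequences and base content came from hg38. Python 3.11.15, pandas 2.3.3, scipy 1.17.1 and pysam 0.24.0 were used with R 4.3.3. The fits were also run on simulated counts with the same spread throughout and no library that stood apart as replicate 3 does. That run does not show how the fits handle replicate 3.

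The members and lists were chosen with earlier results of these data known. Loci named were called in both fits in the same direction, had groups that did not overlap, a mean of at least 20 counts in the higher of the groups and at least 50% unique reads, and were the 6 largest rises and 4 largest falls. Of these falls 1 is not reported here. Subfamilies named were those called with at least 200 mean counts (up to 12 with all 6 libraries, and the 6 largest rises and falls without replicate 3), families those with at least 2000 mean counts, and host genes the 10 largest rises and 6 largest falls among those called in both fits, with at least 50 mean counts and groups that did not overlap. Families below that count and the short L1 elements, L1HS, MER4-int and HERVK3-int were named after their values were seen. Alternatives were DESeq2 1.42.0, aligned fragments as library sizes, no filter, unique reads, either strand, all 12 libraries, a block for the replicate number, each library left out and bins of 100. Aligned fragments and DESeq2, each without replicate 3, were added after seeing the data.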

Additional observations from a re-analysis of the deposited data

Results flagged for a closer look

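The RNA, scRNA and tRNA classes of repeats, outside the 6 analysed, lay higher in all 3 Z18truncZnFmut libraries than in every Clover library, and these were signals in data that no comparison of the report used. The RNA class, made of copies of the small nuclear 7SK RNA, had a mean of 11114 counts per 1000000 aligned fragments in Z18truncZnFmut (9075, 12928 and 11338 in replicates 1 to 3) against 4917 in Clover. The scRNA class, small cytoplasmic RNA, had 23.6 against 14.5, and the tRNA class had 13.4 against 10.2. For all 3 classes the exact permutation p was 0.1, below which this design cannot go, and 10 classes were compared. In the 6 analysed classes, counts on both strands also made up more of the aligned fragments in Z18truncZnFmut. The shares were 8.37%, 8.44% and 16.3% in replicates 1 to 3 against 6.28% to 6.95% in Clover. Whether these 3 classes rose beyond that was not tested. Their part in the other results was not tested. The rRNA class did not separate the groups, but replicate 3 of Z18truncZnFmut had 2116 counts per 1000000 against 208 and 234 in replicates 1 and 2 and 120 to 386 in Clover.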

How the results depend on the processing

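Results are counts of called features of Z18truncZnFmut against Clover, main value first. Loci on the element's strand (1735) were 1145 with unique reads, 3986 with the spread of all 12 libraries, 751 with DESeq2 without replicate 3 and 1301 to 1741 with 1 library left out. Subfamilies (12) were 78 with DESeq2, 31 with aligned fragments, 5 without a filter, 7 with unique reads, 111 with all 12 libraries, 0 to 149 with 1 library left out, and, without replicate 3, 260 with aligned fragments and 131 with DESeq2. Families (1) were 0 with aligned fragments, 0 without a filter, 3 with all 12 libraries, 0 to 5 with 1 library left out, and 7 and 5 with aligned fragments and DESeq2 without replicate 3. Divergence bins (4) were 13 with DESeq2, 16 with all 12 libraries, 1 to 15 with 1 library left out, and 37 and 19 with aligned fragments and DESeq2 without replicate 3. On the opposite strand, loci (50) were 350 with all 12 libraries, 2 to 43 with 1 library left out (2 without Clover replicate 3) and 27 with aligned fragments without replicate 3, subfamilies (0) were 1 with DESeq2, 1 with all 12 libraries, 0 to 26, and 154 and 26 with aligned fragments and DESeq2 without replicate 3, and families (0) were 1 with all 12 libraries, 0 to 3, and 9 and 6. Host genes (102) were 393 with DESeq2, 2965 with aligned fragments, 546 without a filter, 29 with unique reads, 653 with all 12 libraries, 490 with elements in the gene's orientation alone, 0 to 512 with 1 library left out, and 2962 and 328 without replicate 3. Against Z18trunc, families (0) were 1 with DESeq2, 1 with all 12 libraries and 1 with aligned fragments without replicate 3, and subfamilies (0) were 1 with all 12 libraries and 57 (55 lower) and 12 without replicate 3 with aligned fragments and DESeq2. The 3 values whose sign turned with a call on either side were Alu 0.31 and CR1 0.28 (aligned fragments without replicate 3) and NCAPD2 0.40 (elements in the gene's orientation). The others were uncalled log2 fold changes. Against Clover with aligned fragments these were Alu 0.43, CR1 0.64, ERV1 0.43, ERVK 0.53, MIR 0.49, SVA 0.18, TcMar-Mariner 0.56 and hAT-Charlie 0.69, and without replicate 3 as well ERV1 0.17, ERVK 0.22, MIR 0.16, SVA 0.19, TcMar-Mariner 0.19 and hAT-Charlie 0.21. With DESeq2 without replicate 3 they were Alu 0.088, CR1 0.049, ERVL -0.00365, L2 -0.12 and hAT-Tip100 -0.038. L2 was -0.058 with DESeq2, -0.075 without a filter, -0.00258 with all 12 libraries and -0.0017 with the replicate block, hAT-Charlie 0.040 with unique reads and Gypsy -0.22 on either strand. Against Z18trunc with aligned fragments they were L1 0.090, Alu 0.12, CR1 0.25, ERVK 0.21, MIR 0.21, SVA 0.082, TcMar-Mariner 0.13, TcMar-Tigger 0.16, hAT-Charlie 0.34 and hAT-Tip100 0.46, and without replicate 3 as well Alu 0.0055, SVA 0.099, ERVL -0.13, ERVL-MaLR -0.11, Gypsy -0.12 and L2 -0.13. With DESeq2 without replicate 3 they were Alu 0.15, CR1 0.039, ERVK 0.043, MIR 0.033, SVA 0.25 and hAT-Charlie 0.0048, and hAT-Tip100 was 0.016 with DESeq2 and 0.032 with all 12 libraries. Leaving out 1 library at a time, the values against Clover ran from -0.28 to 0.11 for Alu, -0.057 to 0.072 for CR1, -0.19 to 0.014 for ERVK, -0.094 to 0.13 for L2, -0.022 to 0.067 for hAT-Charlie, -0.015 to 0.20 for hAT-Tip100 and -0.029 to 0.078 for L1 with a milliDiv of 350 or more. Against Z18trunc they ran from -0.32 to 0.15 for Alu, -0.18 to 0.035 for CR1, -0.058 to 0.27 for ERV1, -0.24 to 0.039 for ERVK, -0.22 to 0.029 for MIR, -0.52 to 0.24 for SVA, -0.11 to 0.0014 for hAT-Charlie and -0.052 to 0.051 for hAT-Tip100. With the replicate block, subfamilies fell to 0, divergence bins to 1, opposite-strand loci to 33 and host genes to 0, and the L1 family kept its call (adjusted p = 0.0349). Whether the numbers pair the samples could not be decided. Same-numbered libraries correlated at -0.348, 0.0926 and -0.271 over 527 subfamilies, and libraries of unlike number at -0.267 to 0.357. These are correlations of deviations from the means of 3 libraries, and such deviations depend on each other. Of 1225 alternatives for named features 856 kept their direction and their side of the threshold, 215 lost the call, 78 gained it and 76 changed sign, 73 of these with no call on either side. Among the single values, 7 of 15 changed sign under some alternative. The causes were not tested.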
